A study of Mus musculus with 12 samples.

Results

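The difference between 2 origins in how a dOVA line departs from its parent was measured by RNA sequencing of 4 mouse melanoma cell lines. MeVa2.1 and MeVa2.1.dOVA form the MeVa2.1 origin, and MeVa2.2 and MeVa2.2.dOVA form the MeVa2.2 origin. All 12 of the 12 libraries were used, 3 per line, assigned by sample title. Every line is labelled genotype WT and untreated, with a subcutaneous skin tumour as its source. The labels neither spell out dOVA nor say whether a line is 1 clone, and a line with the suffix is taken here to derive from the line named without it. With 1 dOVA line per origin, dOVA and anything else that sets that line apart from its parent cannot be told apart. Nothing in the labels says that the libraries of a line are separate cultures, and p-values cover the spread among these libraries alone, which may be technical.

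For each gene the quantity of interest was the log2 fold change of MeVa2.1.dOVA against MeVa2.1 minus that of MeVa2.2.dOVA against MeVa2.2, called the difference of dOVA differences here. A positive value means that the dOVA line stood higher, relative to its parent, in the MeVa2.1 origin than in the MeVa2.2 origin. Levels are CPM, read counts relative to the TMM-scaled library size, which are not scaled by gene length and are compared between lines only. Fold changes come with the standard error (SE) that the F statistic of edgeR's quasi-likelihood test implies, and adjusted p-values are from that test with Benjamini-Hochberg adjustment across every gene tested.

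Melanoma cells are recognised by CD8 T cells through peptides held on MHC class I molecules, and interferons raise the genes of this display together with a wide antiviral programme. Phagocytes read a separate signal, in which CD47 on a cell engages SIRPα. Melanoma lines also differ in how far they have left the pigmented melanocyte state, and lines of a dedifferentiated state carry little melanin-gene RNA and much Axl.

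Libraries held 16181816 to 35627069 gene counts, and replicate 3 was the deepest of each line. Libraries of a line correlated at 0.932 to 0.985 in log2 CPM, and libraries of different lines at 0.856 to 0.979. Replicate 2 of MeVa2.1.dOVA and replicate 2 of MeVa2.2 stood apart from their lines on the first principal components. Axl, a receptor kinase that marks dedifferentiated melanoma, was at 1220 to 1840 CPM in the 12 libraries. Ngfr and Egfr, listed as markers of the same state, were low, at 0 to 6.11 and 0 to 4.76 CPM. The melanocyte genes Mlana, Tyrp1 and Dct did not exceed 2.28 CPM in any library but replicate 1 of MeVa2.2, where Dct reached 15.6 CPM. Mitf, a melanocyte transcription factor, was at 9.12 to 24.4 CPM in the 12 libraries. The leukocyte marker Ptprc did not exceed 0.232 CPM, and the T cell marker Cd3e was at 0 in all 12 libraries. In libraries of whole cultures, fewer cells of a type and less RNA per cell cannot be told apart.

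The dOVA change differed between the origins for 12 of 13985 tested genes (0.0858%). For 7 of them (0.0501%) the difference was positive, led in size by B3galnt1, Usp13 and Radil, and for 5 (0.0358%) it was negative, led by Hdx and Lrfn3. At an unadjusted p below 0.05 there were 1187 genes (8.49%), 641 positive (4.58%) and 546 negative (3.9%). DESeq2's Wald test called 272 of the 15713 genes to which it gave an adjusted p (1.73%), including all 12. With the replicate number as a block edgeR called 118, also including all 12. The unblocked edgeR count rests on few libraries: it was 0 without replicate 3 of MeVa2.1.dOVA or without replicate 1 of MeVa2.2. There 1125 and 992 genes had an unadjusted p below 0.05 and DESeq2 called 201 and 230. It was 1 without replicate 1 or replicate 3 of MeVa2.1, and 4 without replicate 2 of MeVa2.1, replicates 1 or 2 of MeVa2.1.dOVA, or replicates 2 or 3 of MeVa2.2.dOVA. The first gene outside the threshold was Phactr2, a regulator of protein phosphatase 1 and actin, at -2.41 (SE 0.39, adjusted p = 0.0572), beside Radil inside it at 0.0455.

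**Figure D1:**
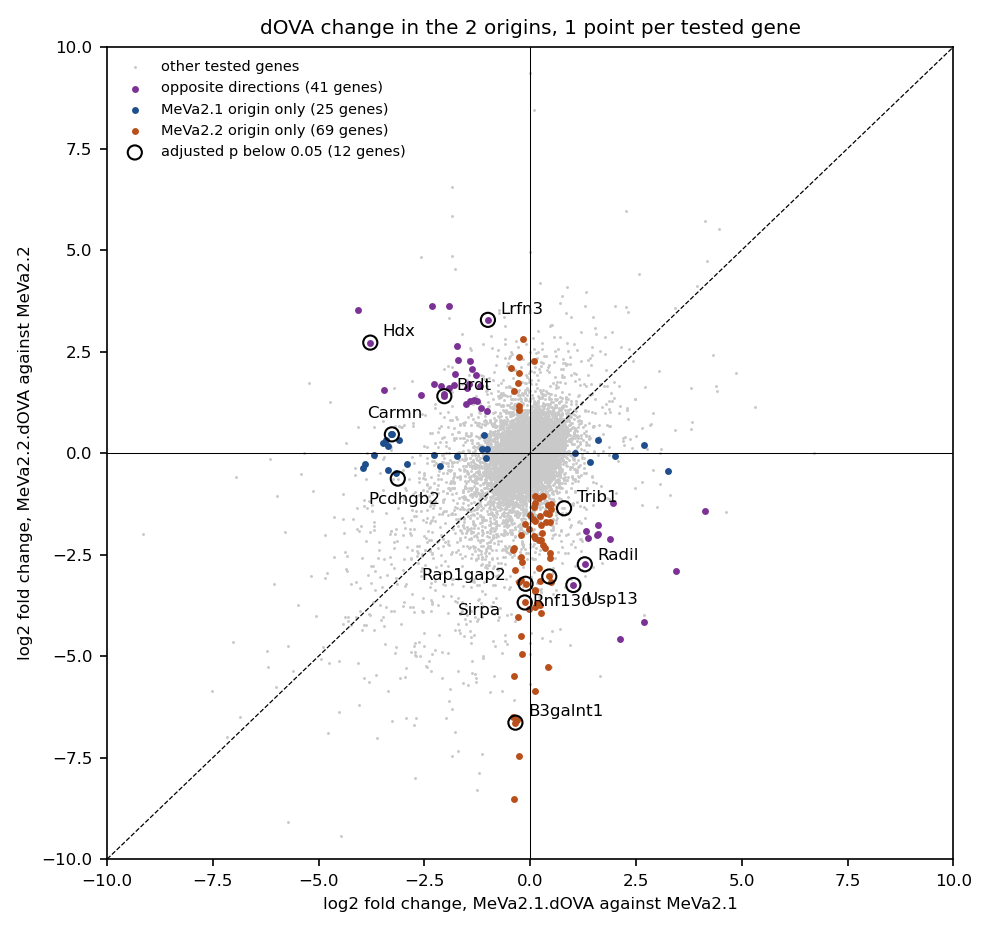
Log2 fold change of each dOVA line against its parent, MeVa2.1 origin on the horizontal axis and MeVa2.2 origin on the vertical axis, 1 point per tested gene (13985). Genes on the dashed line changed equally in both origins. The 12 circled genes passed the test of the difference, and Hdx in the upper left and Usp13 in the lower right lie far from the line on opposite sides.

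The 12 are described by role, starting with proteins of the cell surface and the enzyme B3galnt1. Sirpa encodes SIRPα, an inhibitory receptor whose ligand is CD47. Its level was 76.8, 119 and 95.2 CPM in replicates 1, 2 and 3 of MeVa2.1, and 95.8, 85.0 and 85.5 in MeVa2.1.dOVA. In the MeVa2.2 origin it was 11.8, 12.5 and 12.4 CPM in the parent and 1.42, 0.997 and 0.529 in the dOVA line. The MeVa2.1 libraries overlapped, while the MeVa2.2 parent lay below all of them and its dOVA line lower again. Sirpa fell by 3.68 on the log2 scale in the MeVa2.2 origin (SE 0.31, adjusted p = 0.00118), was at -0.13 (SE 0.26) in the MeVa2.1 origin, and differed by 3.55 (SE 0.40, adjusted p = 0.0119). Cd47, its ligand, was at 66.1 to 168 CPM in the 12 libraries, and its difference was -0.79 (SE 0.37, adjusted p = 0.614).

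Lrfn3 encodes a leucine-rich adhesion molecule known from synapses. MeVa2.1 held 2.13, 1.53 and 1.92 CPM, and MeVa2.1.dOVA 0.673, 1.12 and 0.974. MeVa2.2 held 0.406, 0.594 and 0.418 CPM, and MeVa2.2.dOVA 4.38, 5.82 and 3.73. No libraries overlapped within either origin, and the 2 origins went opposite ways: the parent with the higher level had the dOVA line with the lower one. Lrfn3 rose in the MeVa2.2 origin by 3.28 (SE 0.37, adjusted p = 0.00379), was at -1 (SE 0.34, adjusted p = 0.3) in the MeVa2.1 origin, and differed by -4.28 (SE 0.50, adjusted p = 0.0121).

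Pcdhgb2 is a variable exon of the protocadherin gamma cluster, whose products give cells a surface identity for homophilic contact. Levels were 23.1, 21.8 and 15.5 CPM in MeVa2.1, 3.24, 1.72 and 1.98 in MeVa2.1.dOVA, 57.7, 56.9 and 52.7 in MeVa2.2, and 32.6, 34.1 and 41.1 in MeVa2.2.dOVA. Both dOVA lines lay below all libraries of their parent, by unequal amounts: Pcdhgb2 fell by 3.13 (SE 0.27, adjusted p = 0.00133) in the MeVa2.1 origin and was at -0.63 (SE 0.24, adjusted p = 0.216) in the other. The difference was -2.49 (SE 0.35, adjusted p = 0.0357). Its annotated span, chromosome 18, 37689828 to 37841873 on GRCm38, contains or overlaps the other gamma genes, which share their last exons, so reads can be assigned to a variable exon only in part.

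B3galnt1 encodes the enzyme that makes globoside, a glycosphingolipid of the outer membrane. It was at 11.1, 10.3 and 15.9 CPM in MeVa2.1 and 14.8, 5.39 and 9.17 in MeVa2.1.dOVA, which overlap. MeVa2.2 held 3.60, 1.46 and 4.75 CPM, and MeVa2.2.dOVA 0, 0.0554 and 0.0278. The MeVa2.2.dOVA libraries thus held 2 counts in all against 214 in their parent, a ratio of 126 with an exact 95% counting interval of 34.4 to 1050, which covers counting error only. The fitted difference was 6.30 (SE 0.91, adjusted p = 0.0390), a value that depends on how near-zero counts are handled.

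Regulators of signalling and of protein turnover made up the next group, 5 genes that all fell in the MeVa2.2 origin. Rap1gap2 encodes a GTPase-activating protein that switches off the small GTPase Rap1. Its level was 71.4, 69.4 and 56.3 CPM in MeVa2.1, 75.1, 57.8 and 50.2 in MeVa2.1.dOVA, 5.92, 3.94 and 4.75 in MeVa2.2, and 0.686, 0.222 and 0.612 in MeVa2.2.dOVA. As with Sirpa, the MeVa2.1 libraries overlapped and the MeVa2.2.dOVA libraries lay lowest of all lines. Rap1gap2 fell by 3.22 (SE 0.34, adjusted p = 0.00298) in the MeVa2.2 origin, was at -0.11 (SE 0.27) in the other, and differed by 3.11 (SE 0.43, adjusted p = 0.0357).

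Radil encodes an effector that links active Rap to integrin-mediated adhesion. MeVa2.1 held 0.982, 2.08 and 2.64 CPM and MeVa2.1.dOVA 5.81, 3.73 and 4.56, whereas MeVa2.2 held 0.929, 0.702 and 1.18 and MeVa2.2.dOVA 0.158, 0.111 and 0.139. The libraries separated in both origins, upward in MeVa2.1.dOVA and downward in MeVa2.2.dOVA. Radil fell by 2.74 (SE 0.49, adjusted p = 0.0210) in the MeVa2.2 origin, was at 1.29 (SE 0.40, adjusted p = 0.239) in the other, and differed by 4.03 (SE 0.63, adjusted p = 0.0455). It overlaps Papolb on the same strand, so the 2 genes' reads may not be fully separated.

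Trib1 encodes a pseudokinase that brings targets to the COP1 ubiquitin ligase and is counted among the outputs of MAPK signalling. Its level was 54.9, 44.6 and 40.3 CPM in MeVa2.1, 77.5, 93.8 and 72.2 in MeVa2.1.dOVA, 37.2, 45.8 and 64.6 in MeVa2.2, and 21.8, 18.9 and 17.0 in MeVa2.2.dOVA. The 2 parents overlapped, and the dOVA lines lay above and below them without overlap. Trib1 fell by 1.36 (SE 0.23, adjusted p = 0.0178) in the MeVa2.2 origin, was at 0.80 (SE 0.22, adjusted p = 0.191) in the other, and differed by 2.16 (SE 0.32, adjusted p = 0.0390), the smallest difference of the 12.

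Usp13 is a deubiquitinase, and Rnf130 a membrane-bound RING-finger ubiquitin ligase. Usp13 was at 4.20, 5.52 and 4.14 CPM in MeVa2.1, 11.7, 9.53 and 6.96 in MeVa2.1.dOVA, 5.75, 5.94 and 11.5 in MeVa2.2, and 1.16, 0.388 and 0.862 in MeVa2.2.dOVA. It fell by 3.25 (SE 0.44, adjusted p = 0.00838) in the MeVa2.2 origin, was at 1.02 (SE 0.40, adjusted p = 0.362) in the other, and differed by 4.28 (SE 0.59, adjusted p = 0.0357). For Usp13 the libraries separated in both origins, in opposite directions. Rnf130 was at 21.4, 33.7 and 19.5 CPM in MeVa2.1, 29.7, 43.7 and 28.4 in MeVa2.1.dOVA, 19.5, 21.8 and 14.9 in MeVa2.2, and 3.53, 2.22 and 1.17 in MeVa2.2.dOVA. It fell by 3.04 (SE 0.40, adjusted p = 0.00711) in the MeVa2.2 origin, was at 0.45 (SE 0.36) in the other, and differed by 3.49 (SE 0.53, adjusted p = 0.0411). For Rnf130 the MeVa2.1 libraries overlapped, and replicate 2 was the highest of both MeVa2.1 lines.

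Nuclear genes and a non-coding RNA complete the 12. Hdx, a homeobox gene on chromosome X (111569931 to 111697079, GRCm38), had the largest difference. It was at 2.18, 0.875 and 0.961 CPM in MeVa2.1 and 0.122, 0.118 and 0.0573 in MeVa2.1.dOVA, which together held 6 counts. In MeVa2.2 it was at 1.45, 1.62 and 1.71 CPM, and in MeVa2.2.dOVA at 10.9, 14.5 and 6.23. The parents stood close to each other and the dOVA lines moved away from them in opposite directions. Hdx fell by 3.78 (SE 0.56, adjusted p = 0.0207) in the MeVa2.1 origin, rose by 2.72 (SE 0.44, adjusted p = 0.0173) in the MeVa2.2 origin, and differed by -6.50 (SE 0.71, adjusted p = 0.0119). It was the 1 gene that passed the test in each origin with opposite signs (0.00715% of tested genes), beside 17 (0.122%) that passed in both with the same sign.

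Brdt encodes a bromodomain protein otherwise known from male germ cells. Levels were low: 1.86, 1.26 and 1.26 CPM in MeVa2.1, 0.367, 0.237 and 0.430 in MeVa2.1.dOVA, 0.755, 0.648 and 0.722 in MeVa2.2, and 1.95, 1.66 and 2.03 in MeVa2.2.dOVA. The order of the parents was the reverse of the order of their dOVA lines, with no overlap in either origin. Brdt fell by 2.03 (SE 0.37, adjusted p = 0.0425) in the MeVa2.1 origin, was at 1.40 (SE 0.35, adjusted p = 0.071) in the other, and differed by -3.44 (SE 0.51, adjusted p = 0.0390).

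Carmn, a long non-coding RNA of smooth muscle and heart, was at 32.7, 42.5 and 21.2 CPM in MeVa2.1 and 4.71, 2.43 and 2.89 in MeVa2.1.dOVA. Both MeVa2.2 lines were low, at 0.871, 1.67 and 0.988 CPM in the parent and 1.05, 1.72 and 2.03 in the dOVA line. Carmn fell by 3.27 (SE 0.40, adjusted p = 0.0193) in the MeVa2.1 origin, was at 0.46 (SE 0.40) in the other, and differed by -3.72 (SE 0.56, adjusted p = 0.0390). Of the 13 tested contractile and smooth muscle genes, Carmn was the 1 called, with 1 positive and 1 negative at an unadjusted p below 0.05 (15.4%, against 8.49% of all genes). The list's median difference was 0.14, with -0.36 without replicate 3 of MeVa2.2 and 0.97 without replicate 3 of MeVa2.1. Acta2, smooth muscle actin, ranged from 3.85 to 257 CPM, with replicate 2 the lowest of each line, and its difference was -0.14 (SE 1.80).

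**Figure D2:**
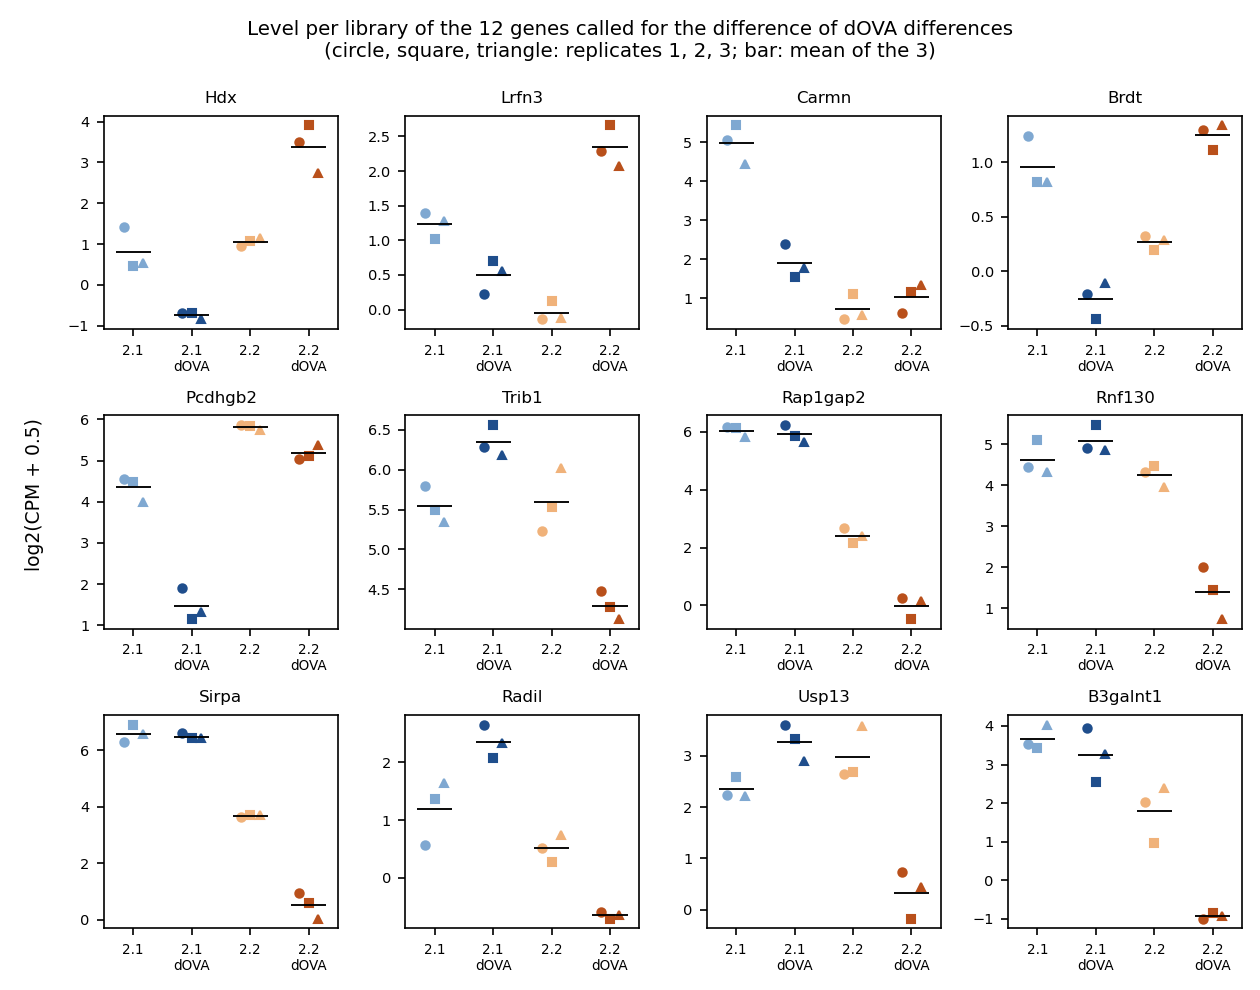
Level of each of the 12 called genes as log2(CPM + 0.5) in every library, with lines 2.1, 2.1 dOVA, 2.2 and 2.2 dOVA from left to right and a bar at the mean of 3. Panels run from the most negative difference (Hdx) to the most positive (B3galnt1), and in the last 7 panels, from Trib1 on, the MeVa2.2.dOVA libraries are the lowest of the 4 lines.

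For 11 of the 12 called genes the dOVA lines stood further apart than their parents did, and for 1, Carmn, they stood closer. The distance between the origins in Hdx, as MeVa2.1 minus MeVa2.2 on the log2 scale, went from -0.37 in the parents to -6.75 in the dOVA lines, and that in Trib1 from -0.19 to 2.08. Among the 1187 genes at an unadjusted p below 0.05 the distance was wider in the dOVA lines for 75.1%, and among all tested genes for 59.1%. In 6 of the 12 (Hdx, Lrfn3, Brdt, Radil, Trib1 and Usp13) the libraries did not overlap in either origin and lay in opposite directions, as they did for 150 of all tested genes (1.07%), beside 462 (3.3%) that did so in the same direction. Libraries of MeVa2.1.dOVA lay wholly above those of the parent for 10.2% of tested genes and wholly below for 10.9%, and those of MeVa2.2.dOVA for 7.67% and 9.22%. Within each replicate number taken alone, all 12 genes kept the sign of their difference. The same libraries called these genes, so this agreement is description and not further support.

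Most genes called in 1 origin did not reverse in the other. In the MeVa2.1 origin 68 genes changed (0.486%), 14 up (0.1%) and 54 down (0.386%). Blocking on the replicate number gave 364, and without the 2 libraries that stood apart it was 2. Leaving out 1 library at a time gave 1 to 83. Of the 68, 53 had the same sign in the MeVa2.2 origin and 15 the opposite sign. Their median size was 3.16 in their own origin and, signed to it, 0.65 in the other. In the MeVa2.2 origin 278 genes changed (1.99%), 59 up (0.422%) and 219 down (1.57%), of which 208 had the same sign in the MeVa2.1 origin, 68 the opposite, and 2, Shisa6 and Mageb7-ps, had no counts there (named after their values were seen). Blocking on the replicate number gave 1084, and leaving out 1 library at a time gave 20 to 447. Their medians were 2.74 and 0.57. The difference itself was called for 4 of the 68 and 9 of the 278. Across all tested genes, which are not independent replicates, the 2 origins' fold changes correlated at r = 0.44 (Spearman's rho 0.37), and these comparisons share no library.

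With the 12 called genes included, 267 (1.91%) had both an unadjusted edgeR p below 0.05 and a DESeq2 adjusted p below 0.05 for the difference. They were sorted into classes by their change in each origin, where a gene counts as moving if its fold change is at least 2-fold with an unadjusted p below 0.05, and as still if its log2 fold change is below 0.5 in size. By this description 41 genes (0.293%) moved in opposite directions, 13 of them (0.093%) upward and 28 (0.2%) downward in MeVa2.1.dOVA. Another 25 (0.179%) moved in the MeVa2.1 origin and were still in the other, 6 upward (0.0429%) and 19 downward (0.136%). In the MeVa2.2 origin alone 69 moved (0.493%), 9 upward (0.0644%) and 60 downward (0.429%). A further 9 moved the same way by different amounts, and 123 (0.88%) met none of these descriptions. The classes were set by the contrasts they describe, so their members' values are given as description. Being still rests on the estimate alone and does not show that a gene was unchanged. For example, Parp14 was at -0.16 (SE 0.64) in the MeVa2.1 origin and Cotl1 at -0.05 (SE 0.75) in the MeVa2.2 origin.

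H2-K1, named with the next 4 genes from those that stood lower in MeVa2.1.dOVA and higher in MeVa2.2.dOVA, encodes a classical MHC class I heavy chain, which presents peptides to T cells. It was at 61.3, 33.9 and 20.2 CPM in MeVa2.1, 19.7, 17.4 and 10.5 in MeVa2.1.dOVA, 28.9, 22.6 and 11.4 in MeVa2.2, and 79.0, 91.0 and 68.0 in MeVa2.2.dOVA. Libraries separated in both origins. Its difference was -3.20 (SE 0.60, adjusted p = 0.084), from -1.28 (adjusted p = 0.281) and 1.92 (adjusted p = 0.0462). H2 class I genes are near-identical in parts, so reads can be lost or split between them.

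Lgals3bp, a secreted galectin-3 binding glycoprotein, was at 9.17, 6.78 and 6.97 CPM in MeVa2.1, 3.36, 1.18 and 2.29 in MeVa2.1.dOVA, 55.5, 31.1 and 17.4 in MeVa2.2, and 106, 116 and 420 in MeVa2.2.dOVA. Sp100, a nuclear body protein, was at 2.29, 3.17 and 2.85, then 1.04, 0.651 and 0.315, then 12.7, 7.51 and 3.57, and 17.4, 16.1 and 41.5 CPM in the same order of lines. In both genes replicate 3 of MeVa2.2.dOVA was the highest library. Their differences were -4.37 (SE 0.83, adjusted p = 0.084) for Lgals3bp and -3.77 (SE 0.78, adjusted p = 0.105) for Sp100.

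Lif, a cytokine of the interleukin-6 family, was at 17.0, 8.97 and 5.49 CPM in MeVa2.1, 3.61, 3.85 and 1.81 in MeVa2.1.dOVA, 9.70, 11 and 10.5 in MeVa2.2, and 34.4, 75.0 and 11.1 in MeVa2.2.dOVA. Its difference was -3.72 (SE 0.86, adjusted p = 0.144), and replicate 3 of MeVa2.2.dOVA lay only just above the parent. Slc6a15, a transporter of neutral amino acids, was nearly absent from the MeVa2.1 origin, with 15 counts in the parent and 1 in MeVa2.1.dOVA (ratio 14, exact 95% counting interval 2.15 to 589). In MeVa2.2 it was at 9.99, 13.2 and 10.2 CPM and in MeVa2.2.dOVA at 27.8, 34.0 and 36.3. The difference of Slc6a15 was not called (adjusted p = 0.084). Blnk, an adaptor of B cell receptor signalling, showed the reverse pattern: 10.8, 3.55 and 7.27 CPM in MeVa2.1, 33.6, 17.8 and 28.7 in MeVa2.1.dOVA, 17.0, 2.16 and 7.37 in MeVa2.2, and 2.64, 0.554 and 2.81 in MeVa2.2.dOVA. The MeVa2.2 libraries of Blnk overlapped, and its difference was 4.01 (SE 1.01, adjusted p = 0.191).

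In the MeVa2.1 origin alone, Fhl1, a LIM-domain protein of muscle, Npas3, a neural transcription factor, and Gpatch4, a nucleolar protein, rose. Fhl1 was at 37.9, 51.3 and 52.3 CPM in MeVa2.1 and 185, 171 and 213 in MeVa2.1.dOVA (log2 fold change 2.01, adjusted p = 0.0262), against 95.4, 215 and 91.2 in MeVa2.2 and 148, 132 and 99 in MeVa2.2.dOVA (-0.08). Npas3 rose by 1.59 (adjusted p = 0.0235), from 4.86, 5.96 and 6.51 CPM to 18.0, 13.6 and 20.6, a level near the 11.4 to 19.5 CPM of the MeVa2.2 lines. Gpatch4 rose by 1.05 (adjusted p = 0.0425), from 36.6, 29.6 and 36.7 CPM to 69.5, 79.0 and 64.6, near the 50 to 73.1 CPM of the MeVa2.2 lines. In all 3 the MeVa2.1 parent was the line that lay apart. Their differences were 2.09 (SE 0.44, adjusted p = 0.108), 1.26 (SE 0.34, adjusted p = 0.231) and 1.05 (SE 0.27, adjusted p = 0.194).

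Thsd7a, a membrane protein with thrombospondin repeats, fell by 3.42 (adjusted p = 0.0328) in the MeVa2.1 origin, from 13.7, 6.34 and 3.13 CPM to 1.04, 0.710 and 0.459. Slc38a1, a transporter of glutamine, fell by 3.10 (adjusted p = 0.0371), from 11.1, 2.62 and 6.92 CPM to 0.917, 0.710 and 0.774. The MeVa2.2 lines kept Thsd7a at 9.54 to 22 CPM and Slc38a1 at 36.5 to 99 CPM. Cacna1c, the pore of the L-type calcium channel, was at 5.08, 1.04 and 1.15 CPM in MeVa2.1 and 0.306, 0.118 and 0.0860 in MeVa2.1.dOVA (-3.90, adjusted p = 0.067), beside 9.25 to 28.8 CPM in the MeVa2.2 lines. Cotl1, an actin-binding protein, was at 57.1, 7.93 and 9.80 CPM in MeVa2.1 and 2.69, 1.60 and 1.49 in MeVa2.1.dOVA (-3.70, adjusted p = 0.0863), with replicate 1 of the parent far above the others. Except for Cotl1, the gene in each case was lower in MeVa2.1 than in MeVa2.2 on average before the further drop. The difference was not called for any of them (adjusted p = 0.0995 for Thsd7a, 0.101 for Slc38a1, 0.259 for Cacna1c and 0.294 for Cotl1).

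In the MeVa2.2 origin alone, Grik5, a kainate receptor subunit, rose by 2.27 (adjusted p = 0.00396), from 1.80, 1.40 and 1.63 CPM to 7.75, 6.93 and 8.76. It was at 19.2 to 38.3 CPM in the MeVa2.1 lines, and its difference was -2.19 (SE 0.36, adjusted p = 0.0577). The other 4 named genes higher in MeVa2.2.dOVA were Parp14 and Parp12, which attach single ADP-ribose units to proteins, Dtx3l, a ubiquitin ligase that pairs with Parp9, and Helz2, a helicase. Parp14 was at 33.8, 9.40 and 4.90 CPM in MeVa2.2 and 88.2, 74.5 and 177 in MeVa2.2.dOVA. In the MeVa2.1 origin it was at 1.72 to 4.77 CPM. Dtx3l was at 27.7, 15.2 and 6.73 CPM, then 58.1, 50.3 and 146, against 5.02 to 11 in the MeVa2.1 origin. Parp12 and Dtx3l rose in the MeVa2.2 origin (1.98, adjusted p = 0.0462, and 2.36, adjusted p = 0.0495), whereas Parp14 (2.82, adjusted p = 0.0512) and Helz2 (1.73, adjusted p = 0.0545) did not pass. None of the 4 was called for the difference (adjusted p = 0.243 for Parp12, 0.259 for Dtx3l, 0.301 for Parp14 and 0.252 for Helz2). Parp14 and Dtx3l are neighbours on chromosome 16.

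Genes lower in MeVa2.2.dOVA and still in the MeVa2.1 origin were the largest class. Mark1, a kinase of microtubule-associated proteins, was at 4.30, 1.89 and 2.36 CPM in MeVa2.2 and 0.369, 0.0554 and 0 in MeVa2.2.dOVA, and it fell by 4.51 (adjusted p = 0.0178). Enah, an actin-elongation factor, went from 41.2, 22.8 and 33.9 CPM to 5.85, 0.997 and 0.584 and fell by 3.75 (adjusted p = 0.0210). The MeVa2.1 lines held Mark1 at 19.6 to 35.6 CPM and Enah at 98.3 to 148 CPM. Slco3a1, an organic anion transporter, fell by 5.50 (adjusted p = 0.0121), from 7.49, 1.40 and 11.4 CPM to 0.316, 0.111 and 0.0556. Nkd2, an inhibitor of Wnt signalling, fell by 3.94 (adjusted p = 0.0495), from 1.57, 0.810 and 2.39 CPM to 0.211, 0.0554 and 0.0556. Tfap2b, a neural crest transcription factor, was at 52.0 to 168 CPM in the MeVa2.1 lines and at 67 counts in MeVa2.2 against 2 in MeVa2.2.dOVA (ratio 39.4, exact 95% counting interval 10.5 to 332), which did not pass (adjusted p = 0.0586). In these 5 genes every MeVa2.2 library lay below every MeVa2.1-origin library, and every MeVa2.2.dOVA library below every MeVa2.2 library. None was called for the difference (adjusted p = 0.108 for Mark1 and Enah, 0.0895 for Slco3a1, 0.217 for Nkd2, 0.264 for Tfap2b).

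**Figure D3:**
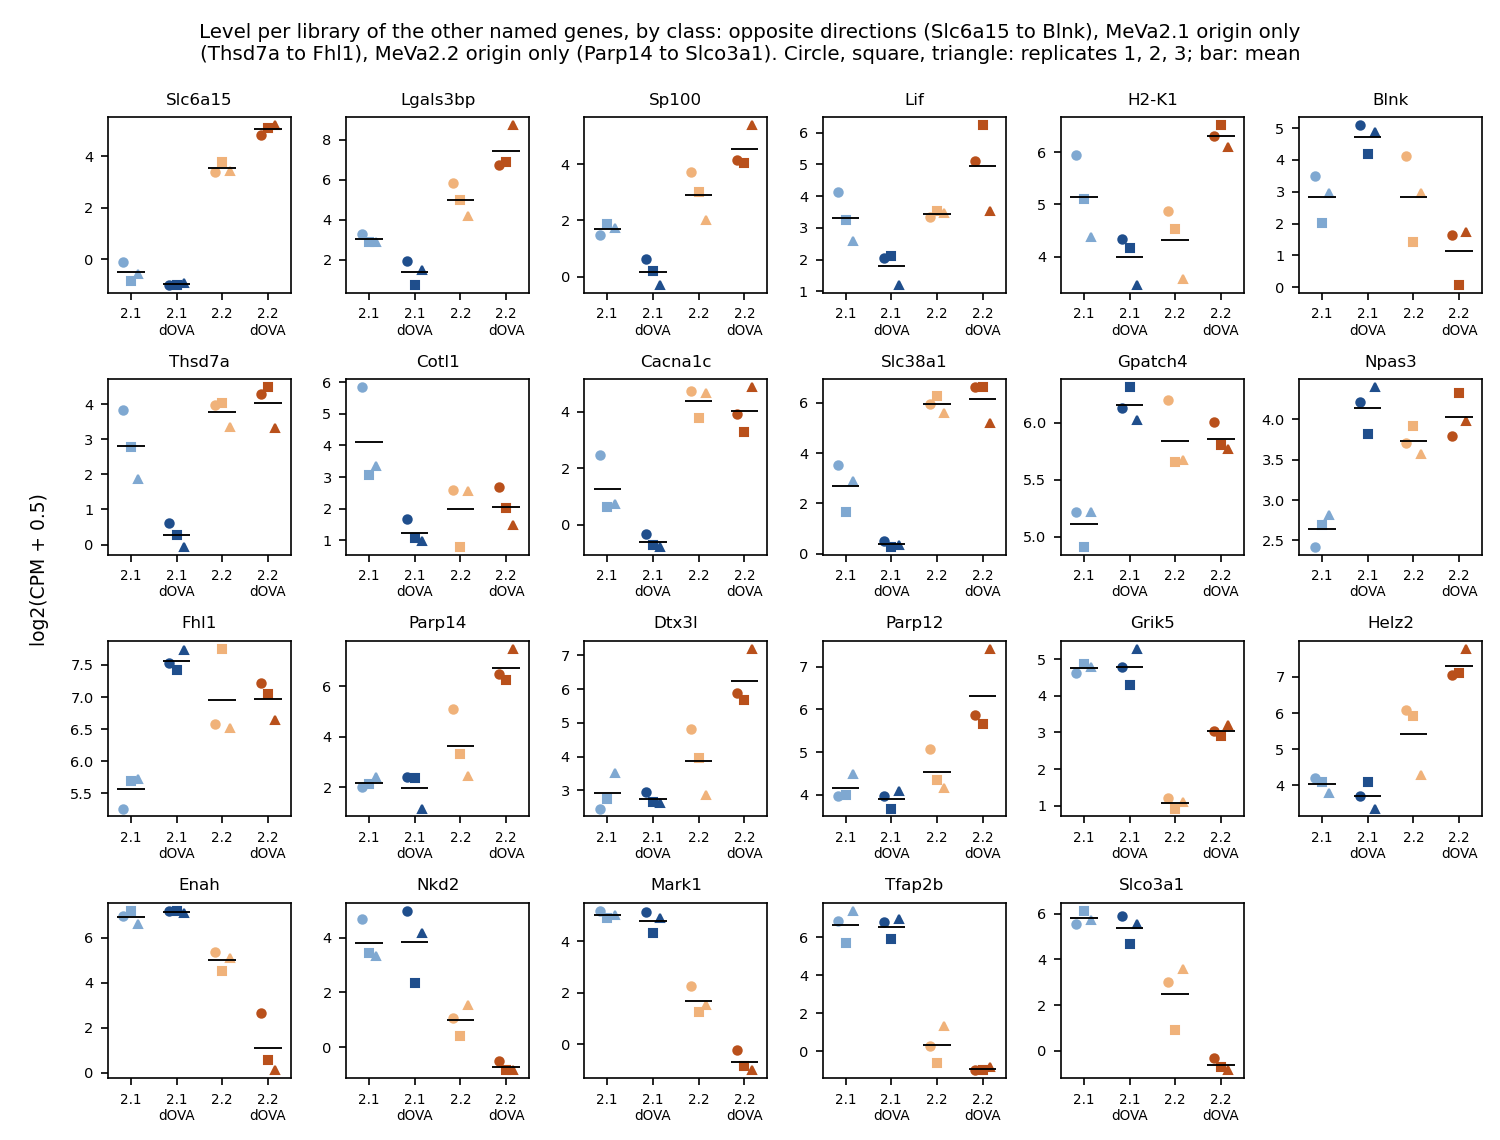
Level of the other 23 named genes as log2(CPM + 0.5) in every library, 1 panel per gene, with lines in the same order and a bar at the mean of 3. In the panels from Enah to Slco3a1 the 6 MeVa2.1-origin libraries sit together at the top, MeVa2.2 lies lower and MeVa2.2.dOVA lowest.

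Interferon-stimulated genes are switched on when interferons, or sensors of foreign or misplaced nucleic acids, activate transcription factors that bind a promoter element of repeated GAAA letters. MHC class I genes share part of this control and display peptides to CD8 T cells. Of 42 tested interferon-stimulated genes none was called for the difference by edgeR, while 19 (45.2%) had an unadjusted p below 0.05, all negative, against 3.9% negative among all genes. DESeq2 called 6. The list's median difference was -2.26 (all tested genes, 0.02), from medians of -0.03 in the MeVa2.1 origin and 2.17 in the MeVa2.2 origin. It was -1.45 without replicate 3 of MeVa2.2.dOVA and -3.17 without replicate 1 of MeVa2.2.

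Mean log2 CPM over the 42 genes was 1.59, 1.46 and 1.21 in MeVa2.1 and 1.89, 1.45 and 1.06 in MeVa2.1.dOVA. It was 4.19, 2.66 and 1.64 in MeVa2.2 and 4.99, 4.65 and 6.28 in MeVa2.2.dOVA. The MeVa2.1 origin's libraries overlapped, those of MeVa2.2 spread widely, and those of MeVa2.2.dOVA lay above all others. The sum over 19 immune cell markers, of which 2 passed the filter on low counts, was 1.76 to 5.35 CPM in MeVa2.1, 1.49 to 6.48 in MeVa2.1.dOVA, 2.96 to 5.52 in MeVa2.2 and 2.36 to 5.38 in MeVa2.2.dOVA. The ranges of the 4 lines overlapped.

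Ifitm3, a membrane protein that blocks virus entry, was at 408, 364 and 157 CPM in MeVa2.1, 155, 136 and 125 in MeVa2.1.dOVA, 242, 129 and 71.3 in MeVa2.2, and 269, 302 and 384 in MeVa2.2.dOVA. Its difference was -2.27 (SE 0.59, adjusted p = 0.208), and the libraries separated downward in the MeVa2.1 origin and upward in the other. Bst2, tetherin, which holds budding virus at the membrane, was at 13.5, 13.7 and 8.37, then 8.13, 8.76 and 6.71, then 30.4, 29.2 and 10.7, and 50.4, 52.2 and 253 CPM in the same order. Trim30a, a TRIM-family regulator of innate signalling, was at 1.3 to 2.94 CPM in the MeVa2.1 origin, 12.5, 4.43 and 1.86 in MeVa2.2, and 31.8, 35.0 and 97.7 in MeVa2.2.dOVA. It rose by 3.14 (adjusted p = 0.0372) in the MeVa2.2 origin. Ddx58, the RNA sensor RIG-I, was at 10.4 to 24.0 CPM in the MeVa2.1 origin, 82.2, 64.0 and 18.9 in MeVa2.2, and 183, 191 and 351 in MeVa2.2.dOVA. Irf7, a transcription factor of the interferon response, was at 0.315 to 1.09 CPM in the MeVa2.1 origin, 22.3, 8.48 and 2.13 in MeVa2.2, and 28.7, 24.7 and 143 in MeVa2.2.dOVA. In Bst2, Trim30a, Ddx58 and Irf7 the highest library of all was replicate 3 of MeVa2.2.dOVA, and the lowest of MeVa2.2 was its replicate 3.

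The promoters of 4 of these genes are shown because they carry the letters of the interferon-stimulated response element, GAAA and GAAA with 2 bases between. They are read 5′ to 3′ on the gene's strand from RefSeq on GRCm38.p6, from 250 bases before to 50 after the start site, with matches on either strand in capitals.
Ifitm3, chr7:141010695-141010994, minus strand: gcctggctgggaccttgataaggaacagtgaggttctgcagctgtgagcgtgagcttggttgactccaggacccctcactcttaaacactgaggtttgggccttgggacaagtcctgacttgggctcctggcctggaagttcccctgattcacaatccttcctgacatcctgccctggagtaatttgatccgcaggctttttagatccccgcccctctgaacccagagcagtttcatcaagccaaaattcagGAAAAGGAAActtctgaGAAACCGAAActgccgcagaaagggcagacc
Bst2, chr8:71537423-71537722, minus strand: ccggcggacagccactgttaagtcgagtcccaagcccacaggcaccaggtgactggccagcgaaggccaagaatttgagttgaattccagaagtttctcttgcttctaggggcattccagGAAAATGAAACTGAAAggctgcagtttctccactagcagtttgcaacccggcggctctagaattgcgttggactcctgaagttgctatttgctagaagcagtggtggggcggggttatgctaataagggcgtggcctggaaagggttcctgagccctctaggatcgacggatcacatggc
Trim30a, chr7:104465144-104465443, minus strand: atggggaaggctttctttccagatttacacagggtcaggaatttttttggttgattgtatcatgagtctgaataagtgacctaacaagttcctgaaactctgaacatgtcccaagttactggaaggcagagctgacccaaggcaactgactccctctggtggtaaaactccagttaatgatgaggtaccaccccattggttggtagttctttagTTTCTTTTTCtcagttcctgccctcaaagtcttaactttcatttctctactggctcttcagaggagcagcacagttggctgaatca
Ddx58, chr4:40239776-40240075, minus strand: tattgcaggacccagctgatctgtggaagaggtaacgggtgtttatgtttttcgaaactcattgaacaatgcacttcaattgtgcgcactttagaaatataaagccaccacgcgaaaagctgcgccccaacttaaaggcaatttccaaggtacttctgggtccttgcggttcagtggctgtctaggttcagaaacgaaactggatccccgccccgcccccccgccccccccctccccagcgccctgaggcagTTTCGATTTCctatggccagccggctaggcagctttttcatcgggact
Ifitm3 has 2 matches, both just after the start site, Bst2 has 2 that overlap, upstream of it, and Trim30a and Ddx58 have 1 each. This motif, searched on both strands, occurred in 17 of the 31 interferon-stimulated genes with a promoter entry (54.8%) and in 5 of 17 MHC class I presentation genes (29.4%). It occurred in 365 of 9945 tested genes with an entry (3.67%) and in 3.45% of all 32544 promoters of this length. It was not found in this window for H2-K1, Lgals3bp, Parp12, Dtx3l, Helz2, Sp100 and Irf7. Only this exact spelling was searched, so variants of the element would be missed. A match is a run of letters and says nothing here about binding.

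Among the 20 tested genes of MHC class I presentation, none was called for the difference by edgeR without a block, and DESeq2 called 6. With the replicate number as a block edgeR called 3, H2-K1, Tap2 and H2-D1. At an unadjusted p below 0.05 there were 11 (55%), all negative, against 3.9% negative among all genes. The median difference was -1.37, from -0.39 in the MeVa2.1 origin and 1.19 in the MeVa2.2 origin, and 17 of the 20 were negative. It was -0.95 without replicate 3 of MeVa2.2.dOVA and -1.67 without replicate 1 of MeVa2.2. Summed over the list, the level was 3760 to 5140 CPM in MeVa2.1 and 3420 to 3690 in MeVa2.1.dOVA. The sum was 4050 to 6280 CPM in MeVa2.2 and 4310 to 4570 in MeVa2.2.dOVA, so it did not rise there. Tap2, a subunit of the peptide transporter, was at 9.5, 9.13 and 4.58 CPM in MeVa2.1, 4.16, 2.90 and 1.2 in MeVa2.1.dOVA, 9.81, 2.75 and 3.15 in MeVa2.2, and 13.8, 16 and 17.7 in MeVa2.2.dOVA. It resembled H2-K1 in that the 2 origins separated in opposite directions. H2-D1, the other classical heavy chain listed, rose in the MeVa2.2 origin by 1.16 (adjusted p = 0.0462), from 112, 91.3 and 60.3 CPM to 189, 204 and 198. B2m, the shared light chain, was at 344 to 579 CPM in the MeVa2.1 origin, 574, 571 and 377 in MeVa2.2, and 849, 785 and 937 in MeVa2.2.dOVA, a difference of -0.86 (SE 0.32, adjusted p = 0.439). Of the 14 tested interferon receptors and proximal signalling genes none had an unadjusted p below 0.05, and their median difference was -0.12.

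**Figure D4:**
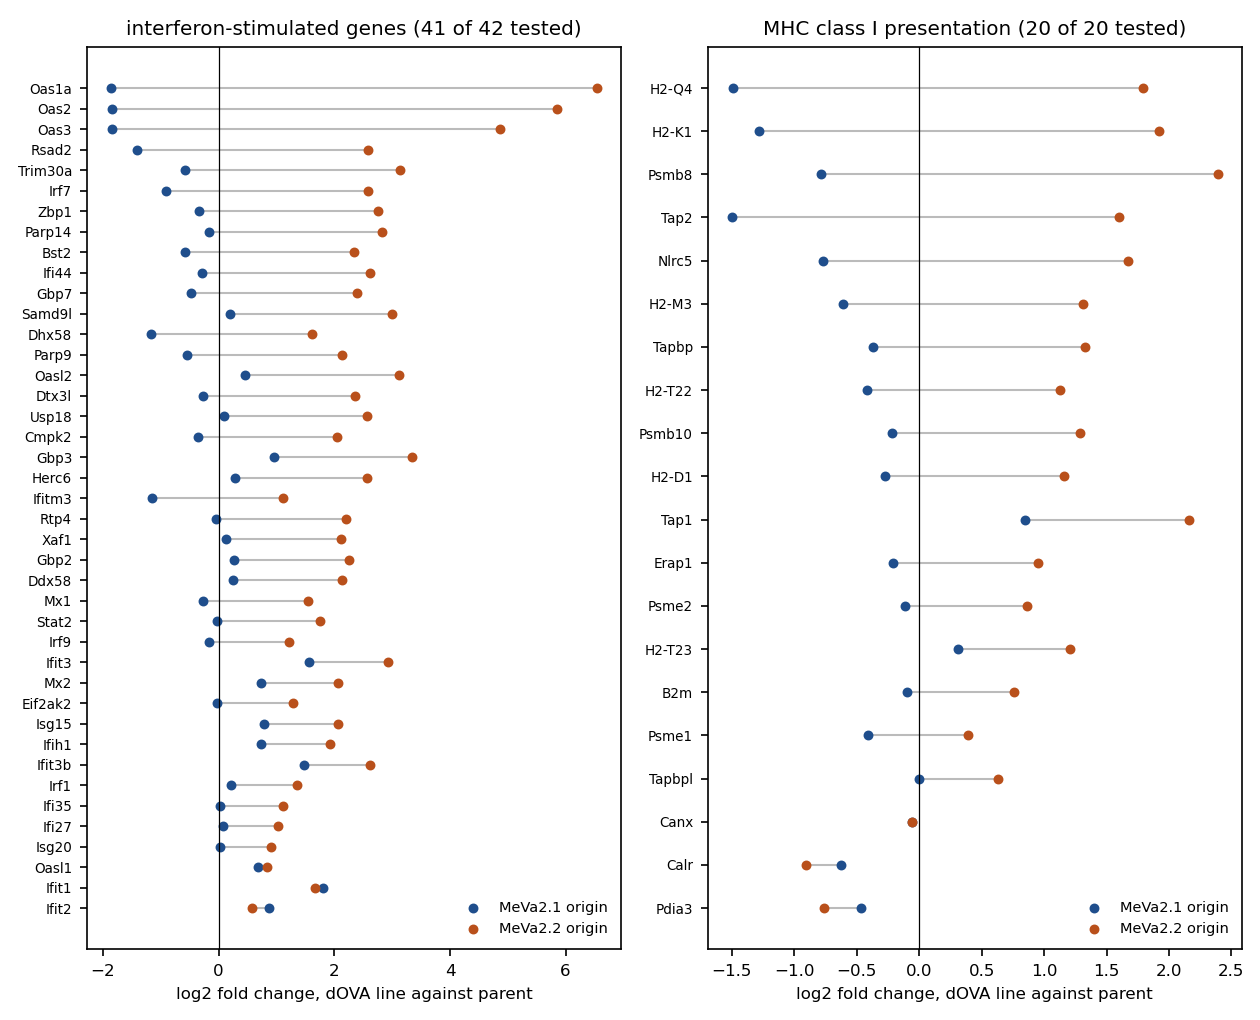
Log2 fold change of the dOVA line against its parent for 41 of the 42 tested interferon-stimulated genes (left) and all 20 tested MHC class I presentation genes (right), with 1 point per origin joined by a line. The MeVa2.2 point lies to the right of the MeVa2.1 point in 39 of 41 and 17 of 20 genes.

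Chemokines and cytokines had 1 positive and 4 negative genes of 22 at an unadjusted p below 0.05 (22.7%, against 8.49% of all genes). Their median difference was -0.93, which was -0.47 without the 2 libraries that stood apart. None was called by edgeR, while DESeq2 called 4 and edgeR with the replicate number as a block called 2. Osmr, the oncostatin M receptor, fell by 3.96 (adjusted p = 0.0193) in the MeVa2.1 origin, from 6.17, 5.63 and 5.24 CPM to 0.306, 0.474 and 0.315. In the MeVa2.2 origin it was at 3.54, 1.67 and 1.44 CPM, then 1.53, 2.77 and 0.918, which overlap, and its difference was -3.60 (SE 0.68, adjusted p = 0.084). Il15, a cytokine of T and NK cells, was at 2.35, 0.601 and 2.64, then 0.856, 0.237 and 0.974 CPM in the MeVa2.1 origin, and at 0.523, 0.324 and 0.494, then 2.11, 0.609 and 3.67 in the other. Cxcl14, a chemokine of skin, was at 0.355 to 2.84 CPM in the MeVa2.1 lines and had 32 counts in MeVa2.2 but none in its dOVA line, at least 12.5-fold lower against a floor of 3 counts per line.

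Of the 22 tested clustered protocadherins 1 was called, Pcdhgb2, and 2 were positive and 4 negative at an unadjusted p below 0.05 (27.3%, against 8.49% of all genes). In the MeVa2.1 origin 4 of the 22 fell, against 0.386% of all genes, and none rose. All 4 are gamma genes, which share their last exons, so they may not be separate changes. Pcdhgb1 fell in both origins, by 3.04 (adjusted p = 0.0193) in the MeVa2.1 origin and by 1.59 (adjusted p = 0.0393) in the other. Pcdhgb6 fell by 3.28 (adjusted p = 0.0193) in the MeVa2.1 origin, from 22.8, 25.4 and 25.3 CPM to 4.10, 1.18 and 2.29, and stayed at or below 0.264 CPM in the MeVa2.2 lines. Pcdhga4 fell by 3.36 (adjusted p = 0.0240), from 4.09, 3.34 and 2.72 CPM to 0.245, 0.118 and 0.545. Pcdhgb7, another gamma gene, was at 2.29, 3.77 and 3.84 CPM in MeVa2.1 and 9.66, 7.87 and 7.80 in MeVa2.1.dOVA (1.35, adjusted p = 0.0607), and at 21.6, 17.1 and 23.7, then 11.2, 9.14 and 14.4 in the MeVa2.2 origin (-0.85, adjusted p = 0.138). Its difference was 2.19 (SE 0.38, adjusted p = 0.0684), with libraries separated in both origins in opposite directions.

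Regulators of Rap and Ras had 3 positive genes of 21 at an unadjusted p below 0.05 (14.3%, against 4.58% positive among all genes), Rap1gap2, Rasa3 and Sipa1l3, and none negative. Their median difference was 0.14, and 0.08 to 0.26 over the alternatives. Rasa3, another GTPase-activating protein, fell by 0.81 (adjusted p = 0.0465) in the MeVa2.2 origin, from 174, 128 and 171 CPM to 98.1, 76.0 and 95.7, beside 211 to 265 CPM in the MeVa2.1 lines. MAPK output and feedback genes had 4 positive of 24 (16.7%), Trib1, Ccnd1, Phlda1 and Etv5, and none negative, with a median of 0, and -0.19 to 0.29 over the alternatives. Etv5, an ETS factor, fell by 1.03 (adjusted p = 0.0302) in the MeVa2.2 origin, from 133, 103 and 137 CPM to 67.8, 60.9 and 53.4. Ccnd1, cyclin D1, was at 1340 to 1620 CPM in the MeVa2.1 lines, 1520, 1160 and 1530 in MeVa2.2, and 1080, 838 and 751 in MeVa2.2.dOVA.

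Matrix and basement membrane genes had 7 positive and 1 negative of 36 at an unadjusted p below 0.05 (22.2%, against 8.49% of all genes). None was called by edgeR, while DESeq2 called 3 and edgeR with the replicate number as a block called 4. The median difference was 0.34, with 0.18 without replicate 1 of MeVa2.1.dOVA and 0.90 without replicate 3 of MeVa2.2.dOVA. Sparcl1, a matricellular protein, was at 193, 300 and 315, then 114, 48.4 and 75.2 CPM in the MeVa2.1 origin. It fell by 6.88 (adjusted p = 0.00396) in the MeVa2.2 origin, from 20.0, 6.32 and 51.8 CPM to 0.105, 0.277 and 0.250, and its difference was 5.11 (SE 0.98, adjusted p = 0.0843). Col15a1, a basement membrane collagen, fell by 7.40 (adjusted p = 0.0453), from 9.70, 1.57 and 19.6 CPM to 0.158, 0 and 0.0278, beside 11.8 to 241 CPM in the MeVa2.1 lines. Tnc, tenascin C, was the negative member, at 2260, 1640 and 781, then 1120, 948 and 384 CPM in the MeVa2.1 origin, and at 623, 1140 and 201, then 2030, 2860 and 605 in the other. Fibroblast markers, 12 of 12 tested, had no gene at an unadjusted p below 0.05 for the difference. Their median dOVA change was -1.74 in the MeVa2.1 origin, where Dcn fell, and -1.22 in the MeVa2.2 origin, where Dcn, Thy1 and Pdgfra fell. Their mean log2 CPM was 4.86 to 5.23 in MeVa2.1, 2.77 to 3.76 in MeVa2.1.dOVA, 3.97 to 5.87 in MeVa2.2 and 2.81 to 4 in MeVa2.2.dOVA. Their summed level, most of it from collagen genes, was 3190 to 4780 CPM, 2510 to 5060, 3130 to 7040 and 1750 to 6270 in the same order, and their part in the matrix values was not tested.

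Secreted Wnt inhibitors were among the positive genes of the Wnt list, where 3 of 14 had an unadjusted p below 0.05, all positive (21.4%, against 4.58% positive among all genes). The median difference was 0.74, with 0.45 without replicate 2 and 1.27 without replicate 3 of MeVa2.2.dOVA. Sfrp1, which binds Wnt ligands, was at 4.70 to 17.2 CPM in the MeVa2.1 lines and at 1.45, 0.702 and 3.72 in MeVa2.2. MeVa2.2.dOVA had 0 counts of Sfrp1 against 136 in its parent, at least 53.3-fold lower against the floor of 3 counts per line. Dkk2, which blocks the Wnt co-receptor, fell by 4.03 (adjusted p = 0.0472) in the MeVa2.2 origin, from 542, 120 and 501 CPM to 22.1, 4.65 and 44.3. In the MeVa2.1 origin Dkk2 was at 657, 580 and 559, then 615, 73.2 and 389 CPM, with replicate 2 of the dOVA line far below the others. No gene of the Wnt list was called for the difference, and 1 was with the replicate number as a block.

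Ednrb, the endothelin receptor of the melanocyte lineage, fell in the MeVa2.2 origin from 2.73, 4.37 and 2.81 CPM to 0, 0 and 0.0278, or 202 counts to 1 (ratio 237, exact 95% counting interval 42.1 to 9430; adjusted p = 0.00396). Ednrb was lower in MeVa2.1.dOVA too, at 0 to 0.183 CPM against 0.273 to 0.655 in MeVa2.1, and its difference was not called. The 8 tested melanocyte differentiation genes had 2 at an unadjusted p below 0.05, both positive (25%, against 4.58% positive among all genes). Their median difference was 3.36, which was 1.11 without replicate 1 of MeVa2.2. Of 5 tested endothelial markers, 1 was positive and 3 negative at an unadjusted p below 0.05 (80%, against 8.49% of all genes), and none was called for the difference. Bcl6b, a transcriptional repressor, fell by 3.87 (adjusted p = 0.0193) in the MeVa2.1 origin, from 16.4, 10.9 and 10 CPM to 1.53, 0.474 and 0.602, and was at 15.1 to 62.6 CPM in the MeVa2.2 lines. Cd93, a surface receptor of endothelium, fell by 5.80 (adjusted p = 0.0432) in the MeVa2.1 origin, from 270, 88.2 and 18.8 CPM to 5.63, 0.533 and 0.860, and was at 103 to 716 CPM in the MeVa2.2 lines. Eng, a co-receptor for TGF-beta, was at 179 to 367 CPM and Flt1, a VEGF receptor, at 40.9 to 129 CPM in the 12 libraries. The list's summed level was 392 to 733 CPM in MeVa2.1, 289 to 350 in MeVa2.1.dOVA, 592 to 1050 in MeVa2.2 and 357 to 588 in MeVa2.2.dOVA. Its members Pecam1, Cdh5, Kdr and Tek stayed at or below 1.10 CPM, with Kdr at 0 in 11 of 12 libraries.

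**Figure D5:**
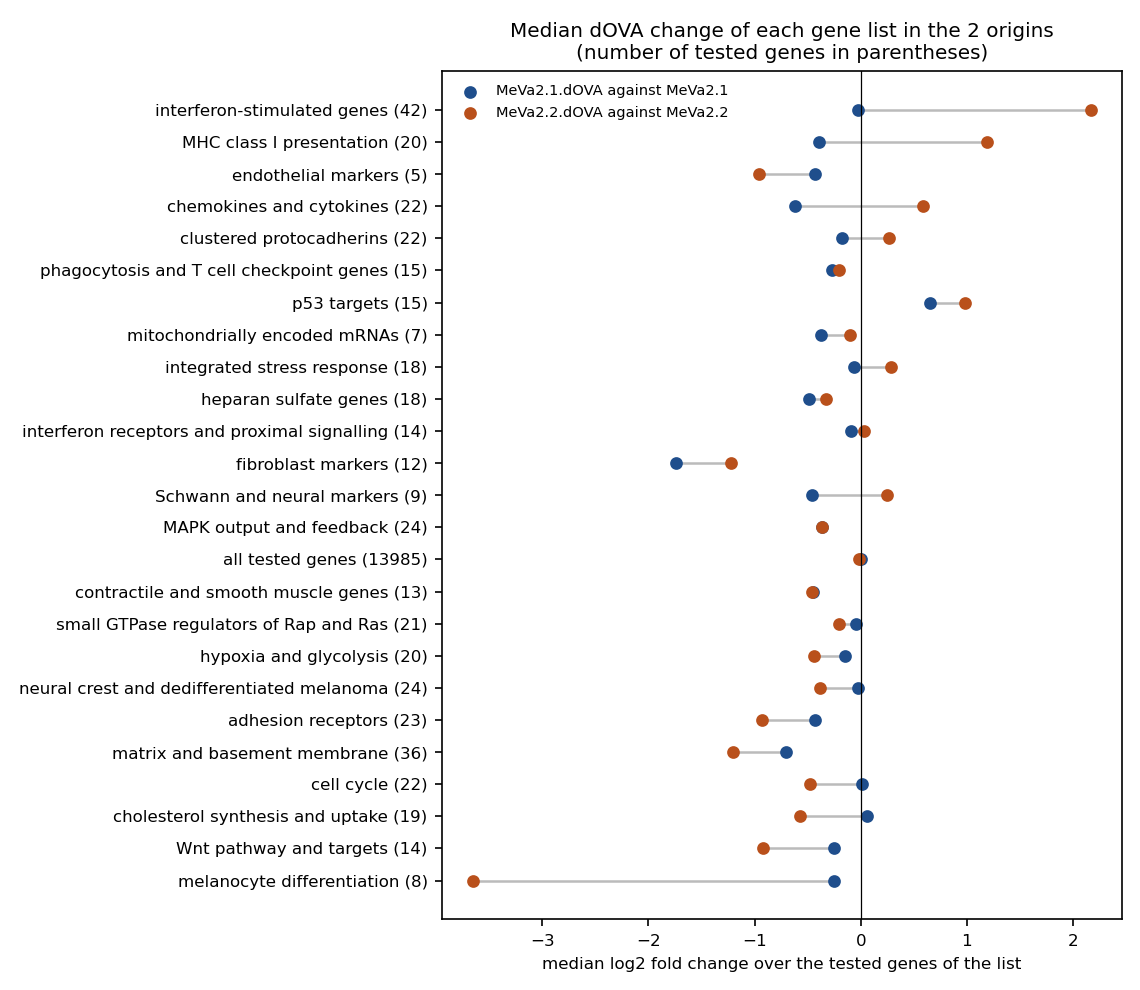
Median log2 fold change of the dOVA line against its parent over the tested genes of each list shown, with 1 point per origin and the number of tested genes in parentheses. Immune cell markers (2 tested) and keratinocyte markers (1 tested) are not shown. Lists run from the most negative median difference (interferon-stimulated genes, -0.03 against 2.17) to the most positive (melanocyte differentiation, -0.25 against -3.65), with all tested genes between them.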

How the data were processed

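RNA was measured in 12 libraries, 3 for each of 4 lines. Per the labels' protocols, a column kit gave the RNA and a stranded mRNA kit the libraries. The authors deposited raw read counts per gene in whole numbers. The submitters' processing notes name STAR 2.6.0c, HTSeq 0.10.0, DESeq2 1.30.1 and GRCm38. The strand setting of the counting is not given in the sources used here, so genes that overlap on opposite strands may share reads. Among the named genes these are Brdt, Hdx, Usp13, Pcdhgb2, Sp100, Npas3, Thsd7a, Cacna1c (with Dcp1b), Dtx3l (with Parp9), Slco3a1, Mark1 and Nkd2. GENCODE M21 gave a symbol and position for 55230 of the 55471 gene identifiers. The 5 tally lines, 35.78% to 40.01% of reads, were left out.

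The analysis used edgeR 4.0.16 in R 4.3.3: filterByExpr by line left 13985 genes, libraries were scaled by TMM, and the 12 libraries were fitted together with 1 mean for each line (glmQLFit, 8 residual degrees of freedom). Contrasts were tested with glmQLFTest and Benjamini-Hochberg adjustment at 0.05. Alternatives were DESeq2 1.42.0, limma 3.58.1 (voom with quality weights), median-of-ratios scaling, no filter, the replicate number as a block, and libraries left out. Where a line had no counts, a floor of 3 counts over its libraries took their place, and ratios with 1 to 3 counts carry exact 95% intervals. For MeVa2.1.dOVA with MeVa2.1, libraries of the same number deviated together from the means of their lines, with correlations across genes of 0.503, 0.488 and 0.534, so the blocked count is given beside the unblocked one. Between other lines they ranged from 0.082 to 0.64, and blocked counts are given there too. The labels do not give the meaning of a number. Besides these correlations, libraries of the same replicate number share a number in their deposited names, whose meaning is also not given.

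Named genes were all genes called for the difference. From each of 6 classes (opposite, MeVa2.1 only and MeVa2.2 only, in each direction) up to 5 more had the largest difference among genes whose mean log2 CPM was 3 or more and whose symbol is no clone name. Members of 26 gene lists could be named too. Phactr2 was named after its value was seen. The comparison, classes and lists were chosen with earlier results of these data known. Promoters were matched by symbol to RefSeq on GRCm38.p6, for 31 of 42 interferon-stimulated and 17 of 20 MHC class I genes.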

Additional observations from a re-analysis of the deposited data

Results flagged for a closer look

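The test of the difference between the origins flagged 12 genes, by an interaction contrast in edgeR with adjusted p below 0.05. Each value is the log2 fold change of MeVa2.1.dOVA against MeVa2.1 minus that of MeVa2.2.dOVA against MeVa2.2. It was positive for B3galnt1 at 6.30, Usp13 at 4.28, Radil at 4.03, Sirpa at 3.55, Rnf130 at 3.49, Rap1gap2 at 3.11 and Trib1 at 2.16. It was negative for Hdx at -6.50, Lrfn3 at -4.28, Carmn at -3.72, Brdt at -3.44 and Pcdhgb2 at -2.49. With 1 library left out at a time, Hdx was called in 10 of 12 fits, Sirpa and Lrfn3 in 8, Rap1gap2 in 4, Usp13 in 3, Pcdhgb2, B3galnt1, Carmn and Rnf130 in 2, Trib1 in 1, and Brdt and Radil in 0. Over the 18 alternatives, DESeq2 and voom included, the largest adjusted p was 0.0645 for Hdx, Sirpa and Lrfn3 and 0.154 for Radil, and each gene kept its sign.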

How the results depend on the processing

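The count of 12 genes for the difference was 272 with DESeq2, 161 without a filter and 649 with limma voom and quality weights. Genes at an unadjusted p below 0.05 numbered 3624 with voom and 1839 without the 2 libraries that stood apart. For MeVa2.1.dOVA against MeVa2.1 the 68 became 389 with DESeq2, 272 without a filter, 353 with voom and 2 without those 2 libraries. For MeVa2.2.dOVA against MeVa2.2 the 278 became 950, 729, 3732 and 693. Without those 2 libraries the MeVa2.1-only class held 16 genes and the MeVa2.2-only class 132. No sign of a named gene's difference reversed in any alternative.

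With the replicate block the difference was called for 118 genes, among them the MHC class I genes H2-K1, Tap2 and H2-D1 (adjusted p = 0.00708, 0.0393 and 0.0335), and 1892 had an unadjusted p below 0.05. The dOVA change was called for 364 genes in the MeVa2.1 origin and 1084 in the MeVa2.2 origin, and the 2 one-origin classes held 66 and 146. Whether the numbers mark pairs for the difference is not settled, so both counts are given. Same-numbered libraries of different lines deviated together at 0.082 to 0.64, lowest for replicate 1 of MeVa2.2 and MeVa2.2.dOVA. For all 12 libraries, the mean correlation with libraries of the other lines was highest for their own number.

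Leaving out 1 library at a time gave 0 to 13 genes for the difference, 947 to 1741 at an unadjusted p below 0.05, 1 to 83 for the MeVa2.1 origin and 20 to 447 for the MeVa2.2 origin. The MeVa2.1 count was 1 without replicate 1 or 2 of MeVa2.1 or replicate 2 or 3 of MeVa2.1.dOVA, and the MeVa2.2 count was 20 without replicate 2 of MeVa2.2.dOVA and 63 without replicate 1 of MeVa2.2. Opposite genes numbered 28 to 45, MeVa2.1-only genes 12 to 31 (12 without replicate 1 of MeVa2.1) and MeVa2.2-only genes 39 to 158 (39 without replicate 1 of MeVa2.1.dOVA, 158 without replicate 3 of MeVa2.2.dOVA). The cause was not tested, beyond fewer samples in each such fit. Depth limits genes with few counts in a line, among them Hdx, B3galnt1, Tfap2b and Slc6a15. The classes were not recomputed with DESeq2 or voom alone, since their rule uses 2 tools.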

Other observations

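The melanin genes Dct and Tyrp1 were at 15.6 and 12.1 CPM in replicate 1 of MeVa2.2, and Dct was at 0.655, 0.673 and 0.738 CPM in replicate 1 of MeVa2.1, MeVa2.1.dOVA and MeVa2.2.dOVA. In replicate 2 of all 4 lines both were at 0. Summed over 16 p53 target genes, the level was 5600 CPM in replicate 2 of MeVa2.1.dOVA against 1740 and 1880 in its other libraries, and 4630, 6080 and 1880 in MeVa2.2.dOVA against 1610, 2840 and 1340 in MeVa2.2. All 19 tested cholesterol synthesis and uptake genes had a positive difference, with 1 at an unadjusted p below 0.05 (5.26%, against 8.49% of all genes). Their median was 0.65, and -0.08 without replicate 3 of MeVa2.2. Of 22 tested cell cycle genes, 21 had a positive difference and none an unadjusted p below 0.05, and their median of 0.55 was -0.09 without the same library.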
